A study of Mus musculus with 8 samples.

Results

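The ID proteins (inhibitors of DNA binding) and the E proteins are helix-loop-helix transcription regulators that control one another. Their genes were followed in Ba/F3 cells, an interleukin-3 dependent mouse cell line that the labels call an immortalised pro-B line. The members are the 4 ID genes Id1, Id2, Id3 and Id4 and the 3 E-protein genes Tcf3, Tcf4 and Tcf12, 7 of the 53465 genes in the count table, each found by its Ensembl identifier, matched to the symbol on GRCm38. The measurement was polyA RNA sequencing of 2 groups that share the C3H strain background. The 5 transformed libraries (replicates 4 to 8) came from Ba/F3 cells transformed with U2AF35 carrying S34F. The 3 parental libraries (replicates 1 to 3) came from Ba/F3 cells with wild-type U2AF35. The S34F form and the transformed state share the same split of libraries, so their parts cannot be told apart. U2AF35, a splicing factor subunit, contacts the end of the intron at the 3' splice site. Nothing in the labels tells if the replicates were grown or derived separately, so each p-value reflects only library-to-library spread, which may be technical.

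E proteins carry a basic region followed by a helix-loop-helix. They bind E-box DNA, written CANNTG, as dimers with one another or with tissue-restricted partners such as TAL1. ID proteins have the helix-loop-helix but lack the basic region, so an E protein paired with an ID protein does not bind DNA. In early lymphocytes E proteins drive B-lineage genes, and high ID activity opposes this. Id1 is also known as a gene that BMP and SMAD signals induce and, in interleukin-3 dependent cells, STAT5.

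Total counts ran from 36122062 to 50050922 in transformed libraries and from 45025892 to 50305573 in parental libraries. Transformed 4 and transformed 7 stood apart from the other transformed libraries: 533 genes passed the test with all libraries and 5042 without these 2. Levels are given as CPM (counts per 1000000 counts), scaled between libraries by TMM factors. U2af1, which encodes U2AF35, had 92.0 to 157 CPM in transformed cells and 85.3 to 98.2 CPM in parental cells (log2 difference 0.51, SE 0.16, edgeR adjusted p = 0.108), and a gene count does not separate an introduced copy from the endogenous gene. Of 13 markers of pro-B cells, the immunoglobulin signalling genes Cd79a and Cd79b were the 2 with a mean of at least 1 CPM. The other 11, among them Ebf1, Pax5, Rag1, Rag2, Dntt and Il7r, had at most 7 counts in any library, so the defining transcripts of the labelled cell type were near 0 or at 0 in both groups.

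Id1 and Id2 were lower in transformed cells. Id3 and Id4 were not detectable, and none of the 3 E-protein genes passed the test in either direction. Id1 averaged 40.7 ± 6.39 CPM in transformed cells and 78.3 ± 13.8 CPM in parental cells, and Id2 averaged 4.19 ± 1.09 CPM in transformed cells and 9.27 ± 2.85 CPM in parental cells (SD, n = 5 and 3). In the fit of all 17733 tested genes, 2 of the 5 members tested were called lower and none higher, at edgeR adjusted p under 0.05. The background for that call was 3.01% of all genes in either direction, 0.908% higher and 2.1% lower. With DESeq2, which called 10.4% of all genes, the same 2 members passed. Earlier results of these data had already named Id1 and Id2 when the members were chosen.

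**Figure D1:**
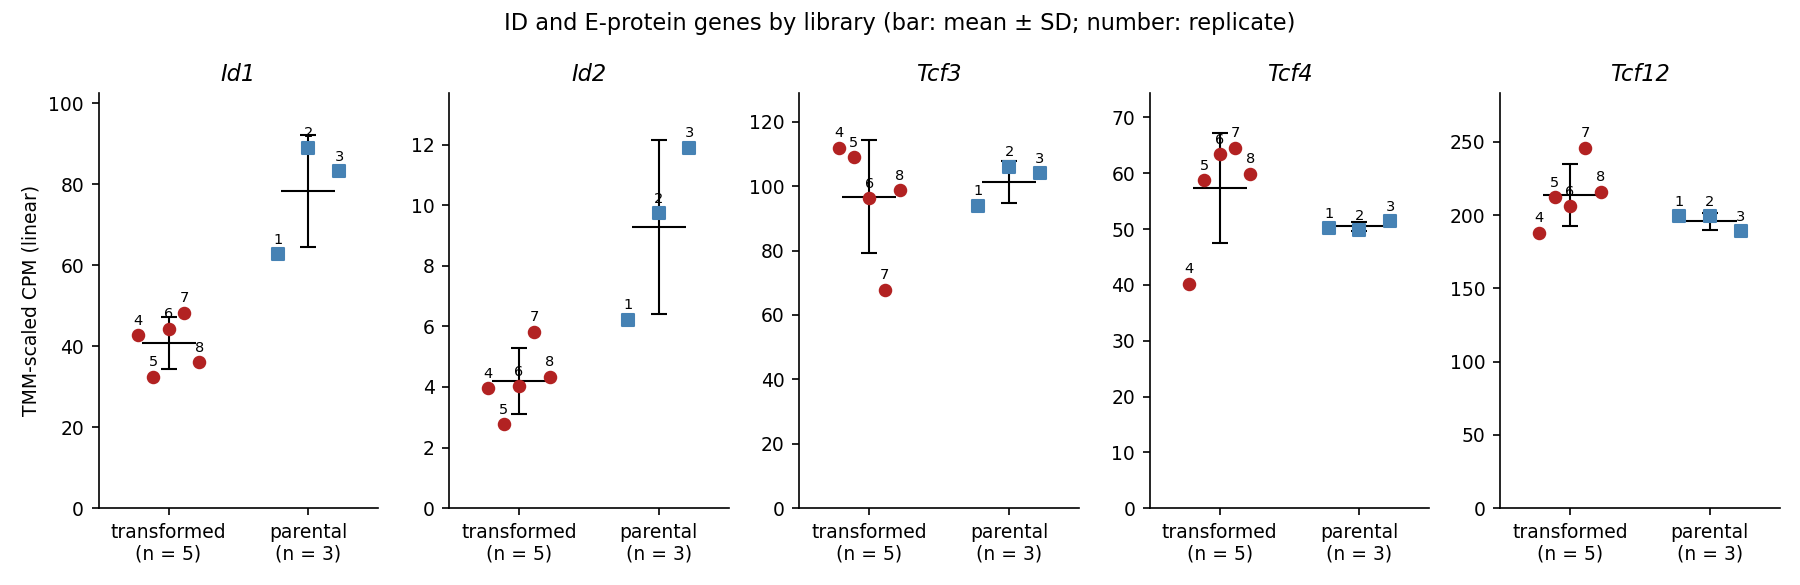
TMM-scaled CPM (vertical axes, linear) of the 5 detected members in 5 transformed libraries (red circles) and 3 parental libraries (blue squares). Numbers are replicates and bars are mean ± SD. For Id1 and Id2 each transformed library lies below each parental library, while the groups overlap for Tcf3, Tcf4 and Tcf12.

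The proximal promoters of a member that fell, a member with almost no reads and a member that did not pass the test are shown to compare the E-box content of their start sites. Each runs 5' to 3' on the gene's own strand from 250 bases before to 50 bases after a RefSeq start site on GRCm38.p6, and capitals mark E-boxes. The Id2 sequence is chr12:25096043-25096342 on the minus strand, the Id3 sequence chr4:136143572-136143871 on the plus strand and the Tcf3 sequence chr10:80433586-80433885 on the minus strand.
Id2 promoter: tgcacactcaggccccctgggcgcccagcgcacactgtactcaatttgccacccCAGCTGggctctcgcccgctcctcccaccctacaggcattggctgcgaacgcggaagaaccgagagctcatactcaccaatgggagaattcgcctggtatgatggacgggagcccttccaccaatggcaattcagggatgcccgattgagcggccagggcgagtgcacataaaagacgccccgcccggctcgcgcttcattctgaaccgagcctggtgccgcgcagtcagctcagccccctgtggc
Id3 promoter: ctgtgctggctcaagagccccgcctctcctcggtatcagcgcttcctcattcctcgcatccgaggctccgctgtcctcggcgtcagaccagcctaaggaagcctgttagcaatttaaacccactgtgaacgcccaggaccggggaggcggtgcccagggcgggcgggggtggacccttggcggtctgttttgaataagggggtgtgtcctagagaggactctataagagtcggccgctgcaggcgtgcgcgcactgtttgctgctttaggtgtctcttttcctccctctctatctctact
Tcf3 promoter: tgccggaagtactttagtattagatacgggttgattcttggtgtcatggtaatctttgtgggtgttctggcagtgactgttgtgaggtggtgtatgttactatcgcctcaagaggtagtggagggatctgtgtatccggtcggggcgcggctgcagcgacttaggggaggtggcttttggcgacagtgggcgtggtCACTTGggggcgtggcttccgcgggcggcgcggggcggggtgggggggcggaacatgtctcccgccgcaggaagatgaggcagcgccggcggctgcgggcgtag

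Windows of this kind were examined for 5 of the 7 members. Id1 had no entry, and entries on chromosome 18, which carries Tcf4, were left out. The letters CANNTG, which read the same on both strands, occurred once in the Id2 window, as CAGCTG starting 196 bases before the start site. They occurred once in the Tcf3 window, as CACTTG starting 54 bases before it, and 0 times in the Id3 and Id4 windows. Of 32851 mouse promoter windows of the same length, 72.3% held CANNTG and 16.3% held CAGCTG. The STAT-type motif TTCNNNGAA, searched on both strands, was in none of the Id2, Id3, Id4, Tcf3 and Tcf12 windows and in 8.3% of all windows. The box CCAAT, on either strand, occurred 3 times in the Id2 window and 0 times in those of Id3 and Tcf3. It also occurred 2 times in the Id4 window and 2 times in 1 of the Tcf12 windows, and 37.4% of all windows held at least 1. The 3 annotated Tcf12 windows held 1, 2 and 1 of the letters CANNTG. These matches describe letters only.

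Id1 (ENSMUSG00000042745, chromosome 2, 152736251 to 152737410 on GRCm38, plus strand) encodes the ID protein best known for delaying differentiation of early blood and lymphoid cells. It had 42.7, 32.4, 44.3, 48.2 and 36.0 CPM in transformed 4, 5, 6, 7 and 8, against 62.7, 89.0 and 83.2 CPM in parental 1, 2 and 3. Transformed 7 was the highest of its group and parental 1 the lowest of its own, and the 2 groups did not overlap. The counts behind these levels were 1633 to 2114 in transformed libraries and 3209 to 4453 in parental libraries. The log2 fold change was -0.94 (SE 0.156), a 1.92-fold lower level, with an edgeR adjusted p of 0.0256. By p it was number 122 of all tested genes. An exact two-sided permutation test of log2 CPM over the 56 possible splits gave p = 0.0179, the smallest it can give. Of all tested genes, 9.69% were likewise lower in transformed cells with no overlap between groups.

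Id2 (ENSMUSG00000020644, chromosome 12, 25093799 to 25097140, minus strand) encodes the ID protein needed for innate lymphoid cells and natural killer cells. It had 3.96, 2.78, 4.03, 5.83 and 4.34 CPM in transformed 4, 5, 6, 7 and 8, against 6.22, 9.73 and 11.9 CPM in parental 1, 2 and 3. The groups did not overlap, but transformed 7 and parental 1 lay close together. Its counts were 140 to 205 in transformed libraries and 318 to 541 in parental libraries, so Id2 was measured with fewer reads than Id1. The log2 fold change was -1.15 (SE 0.255), a 2.22-fold lower level, with an edgeR adjusted p of 0.0485, just inside the threshold. The exact permutation test gave p = 0.0179, again the smallest it can give. Of all tested genes, 9.69% were likewise lower in transformed cells with no overlap between groups.

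Both genes were lowest in transformed 5 and highest, among transformed libraries, in transformed 7. After removal of each group's mean, the log2 levels of Id1 and Id2 had a Pearson r of 0.84 over the 8 libraries, which is given as a description because the libraries' depth and composition enter both genes. Per kilobase of annotated exons, Id1 stood above Id2 by 17.4-fold to 24.5-fold in transformed libraries and by 14.7-fold to 21.2-fold in parental libraries. The proportion between the 2 ID genes thus overlapped between groups.

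The lower Id1 and Id2 levels held their direction in all 18 alternative settings, while the calls depended on the libraries in the fit. The log2 fold change of Id1 was -1.08 within sequencing lane 6 (2 libraries a group, edgeR adjusted p = 0.00757, 20.4% of all genes called) and -0.99 within lane 7 (3 transformed libraries against 1 parental library, edgeR adjusted p = 0.9996), where edgeR called 0 genes (0.0%; 507 had an unadjusted p under 0.05) and the lone parental library was assumed to vary like the others. For Id2 the values were -1.33 in lane 6 (edgeR adjusted p = 0.075) and -1.09 in lane 7 (edgeR adjusted p = 0.9996). With lane as a covariate Id1 passed (edgeR adjusted p = 0.0197) and Id2 did not (edgeR adjusted p = 0.0815), while 0.53% of all genes passed. Id1 missed the threshold without parental 2 or 3 and without transformed 5, 6 or 8, with edgeR adjusted p from 0.0604 to 0.152. Id2 missed it without each of the same libraries and without parental 1, with edgeR adjusted p from 0.0695 to 0.25. Few genes of any kind passed in those fits: 0.415%, 0.199% and 0.144% without parental 1, 2 and 3, and 0.487%, 0.38% and 0.424% without transformed 5, 6 and 8. Without transformed 7 alone 7.62% passed, Id1 and Id2 among them. Without transformed 4 and transformed 7 both passed (Id1 -1.06, edgeR adjusted p = 0.00258, and Id2 -1.32, edgeR adjusted p = 0.00829), in a fit where 28.9% of all genes did.

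**Figure D2:**
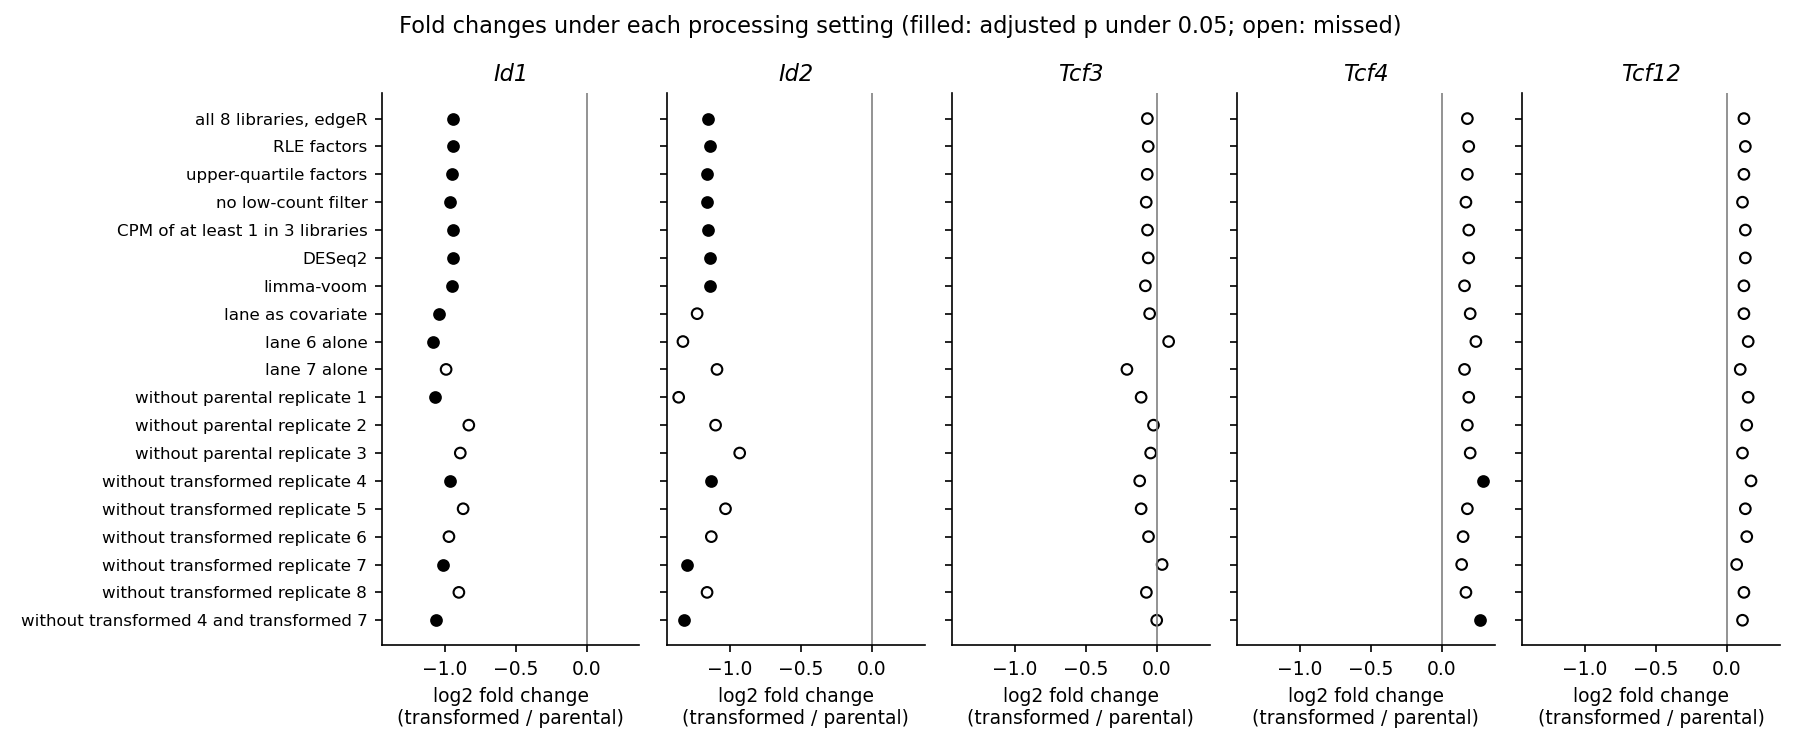
Log2 fold change (horizontal axes, transformed over parental) of 5 members in the fit of all libraries (top) and 18 alternative settings (vertical axis). Filled points had adjusted p under 0.05 and open points did not. Id1 runs from -1.08 to -0.83 and Id2 from -1.36 to -0.93, while Tcf3 lies on both sides of 0.

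In bulk RNA, fewer cells that express a gene and less of its RNA per cell cannot be told apart. Summed markers of 2 other blood lineages did not overlap between the groups, and each sum overlapped once its called gene was left out. The summed level of 10 erythroid and megakaryocyte markers was 180 to 340 CPM in transformed libraries and 417 to 504 CPM in parental libraries, with 6 of the 10 at a mean of at least 1 CPM and Gp1bb at 0 counts. Itga2b, a platelet integrin, fell by 1.33 on the log2 scale (SE 0.172, edgeR adjusted p = 0.0105). Without Itga2b, a sum taken after the data were seen, the erythroid and megakaryocyte markers overlapped. They had 75.9 to 270 CPM in transformed and 204 to 246 CPM in parental libraries. Transformed 4 alone made the overlap, and each other transformed library lay below the parental range of these markers. Gata1, their other abundant gene, had 207 CPM in transformed 4 and 62.6 to 99.6 CPM in the other transformed libraries, against 147 to 172 CPM in parental libraries. Klf1 had 5.43 to 32.4 CPM in transformed and 34.9 to 49.1 CPM in parental libraries (log2 fold change -1.22, edgeR adjusted p = 0.155). Such lower levels without overlap occurred in 9.69% of all tested genes. Of the 7 tested markers of this list, 6 had negative log2 fold changes and 1 a positive one. The summed level of 10 granulocyte and macrophage markers was 25.2 to 80.7 CPM in transformed libraries and 86.5 to 100.0 CPM in parental libraries, with 4 of the 10 at that mean and none at 0 in all libraries. Cebpe, a granulocyte factor, fell by 1.05 on the log2 scale (SE 0.219, edgeR adjusted p = 0.0415). Without Cebpe, the granulocyte and macrophage sums overlapped, at 7.77 to 42.1 CPM in transformed and 26.9 to 39.3 CPM in parental libraries. Of the 5 tested markers, 3 had negative and 2 positive log2 fold changes. Prtn3 had 1.8 to 13.7 CPM in transformed and 17.4 to 18.4 CPM in parental libraries (-1.01, edgeR adjusted p = 0.25). Mpo gave -0.4 (edgeR adjusted p = 0.839). Lyz2 and Cd14, which averaged 0.26 to 1.6 CPM by group, gave 0.52 and 1.97 (edgeR adjusted p = 0.556 and 0.252). Mast cell and basophil markers overlapped between groups (47.1 to 445 CPM in transformed and 148 to 197 CPM in parental libraries). Of these, 5 of 10 were at that mean, and Kit, Fcer1a and Prss34 were at 0 counts. Mitf, Hdc and Cma1 had the smallest p, with log2 fold changes of -0.37, 0.87 and -1.03 (edgeR adjusted p = 0.386, 0.569 and 0.622). Without transformed 4 and transformed 7, 5 of 7 tested erythroid and megakaryocyte markers, 2 of 5 granulocyte and macrophage markers and 3 of 6 mast cell and basophil markers passed, where 28.9% of all genes did. T cell markers summed to at most 3.91 CPM in transformed and 2.02 CPM in parental libraries. Of these, 1 of 9 was at that mean, and Cd8a and Bcl11b were at 0. Lck, Cd247 and Cd3d had the smallest p, with log2 fold changes of 1.73, -0.71 and 0.54 (edgeR adjusted p = 0.146, 0.379 and 0.667). Stroma markers summed to at most 0.6 CPM in transformed and 0.219 CPM in parental libraries, with 0 of 8 at that mean and Col1a2, Col3a1, Lum and Thy1 at 0. The part of these lineage markers in the lower Id1 and Id2 levels was not tested.

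Genome position was also examined. The 1349 tested genes of chromosome 2, which carries Id1, had a median log2 fold change of -0.152, against 0.0165 for all tested genes, with 6 called higher and 43 lower. The 29 tested genes within 1000000 bases of Id1 had a median of -0.04, and 2 of them, Kif3b and 2500004C02Rik, passed the test, where 3.01% of all genes did. The 711 genes of chromosome 12, which carries Id2, had a median of 0.042, and the 8 tested genes within the same distance of Id2 had a median of 0.02 with 0 calls. The part of position in the Id1 and Id2 levels was not tested. No annotated gene overlapped Id1 or Id2.

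Id3 and Id4 were not detectable at this depth. Id3 (ENSMUSG00000007872, chromosome 4, 136143497 to 136145755), an ID gene that antigen receptor signals induce in lymphocytes, had 1 count over the 8 libraries, in transformed 7. Id4 (ENSMUSG00000021379, chromosome 13, 48261228 to 48266026), best known from the nervous system and the mammary gland, had 0 counts. A count of 0 allows up to 3 counts, which was 0.0595 to 0.0857 CPM in transformed libraries and 0.0586 to 0.0658 CPM in parental libraries. Such limits cover counting error only. Neither gene entered the test. The antisense genes A330033J07Rik and Gm49291, whose exons overlap Id4, also had 0 counts.

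The E-protein genes were abundant in both groups. Tcf3 (ENSMUSG00000020167, chromosome 10, 80409514 to 80433647, minus strand) encodes E2A, the E protein on which B cell commitment depends. It had 112, 109, 96.3, 67.8 and 98.7 CPM in transformed 4, 5, 6, 7 and 8, against 94.0, 106 and 104 CPM in parental 1, 2 and 3. Transformed 7 was below every other library, transformed 4 and 5 were above each parental library, and transformed 6 and 8 lay within the parental range. The log2 fold change was -0.0661 (SE 0.152, 95% interval -0.41 to 0.28, edgeR adjusted p = 0.838), with an exact permutation p of 0.804. Its sign turned without transformed 7 (0.038) and within lane 6 (0.084). The E2A gene makes its main protein forms by alternative splicing, and gene counts do not separate these forms.

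Tcf12 (ENSMUSG00000032228, chromosome 9, 71842688 to 72111871, minus strand) encodes HEB, a partner of E2A that is prominent in thymocytes. It had 188, 212, 206, 246 and 216 CPM in transformed 4, 5, 6, 7 and 8, against 199, 199 and 189 CPM in parental 1, 2 and 3. Here transformed 7 was the highest library and transformed 4 the lowest, just below parental 3. The log2 fold change was 0.12 (SE 0.096, 95% interval -0.09 to 0.34, edgeR adjusted p = 0.482), with an exact permutation p of 0.214. Within its span 11 annotated loci share 0 exon bases with it, and the most counted, the pseudogene Rpl15-ps2 on the opposite strand, had 2062 to 4687 counts per library.

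Tcf4 (ENSMUSG00000053477, chromosome 18, 69343356 to 69689079, plus strand) encodes the E protein that specifies plasmacytoid dendritic cells. It had 40.2, 58.8, 63.4, 64.6 and 59.9 CPM in transformed 4, 5, 6, 7 and 8, against 50.2, 49.8 and 51.4 CPM in parental 1, 2 and 3. Of the transformed libraries, 4 lay above each parental one and transformed 4 lay below. The log2 fold change was 0.18 (SE 0.149, 95% interval -0.15 to 0.52, edgeR adjusted p = 0.506), with an exact permutation p of 0.357. Without transformed 4 it was 0.29 and passed (edgeR adjusted p = 0.0345), in a fit where 15.5% of all genes did, and without transformed 4 and transformed 7 it was 0.27 (edgeR adjusted p = 0.0148). One annotated locus, Gm24845, lies inside Tcf4, shares no exon with it and had 0 counts. The interval from all libraries allowed a Tcf4 level from 0.9 to 1.44 times the parental one, a Tcf12 level from 0.939 to 1.27 times and a Tcf3 level from 0.753 to 1.21 times, so changes within these bounds could not be told from none.

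Levels were compared between genes per kilobase of the union of annotated exons. In transformed cells the order was Id1 (35.1 ± 5.51 CPM per kb), Tcf3 (23.9 ± 4.32), Tcf12 (13.7 ± 1.34), Tcf4 (2.1 ± 0.362) and Id2 (1.72 ± 0.448, SD, n = 5), where Tcf4 and Id2 did not differ beyond their spread. In parental cells it was Id1 (67.5 ± 11.9 CPM per kb), Tcf3 (25.1 ± 1.59), Tcf12 (12.6 ± 0.381), Id2 (3.8 ± 1.17) and Tcf4 (1.84 ± 0.0306, SD, n = 3). Id1 thus carried nearly all ID transcripts in both groups. The order of the E-protein genes depended on the length used. Per kilobase of the longest transcript, Tcf12 and Tcf3 were level in transformed cells (33.9 ± 3.31 and 32.8 ± 5.91 CPM per kb) and Tcf4 (6.69 ± 1.16) stood above Id2 (2.13 ± 0.555, SD, n = 5). In parental cells on that scale Tcf4 averaged 5.89 ± 0.0977 and Id2 4.71 ± 1.45 (SD, n = 3). The order of their parental means thus also depended on the length used.

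**Figure D3:**
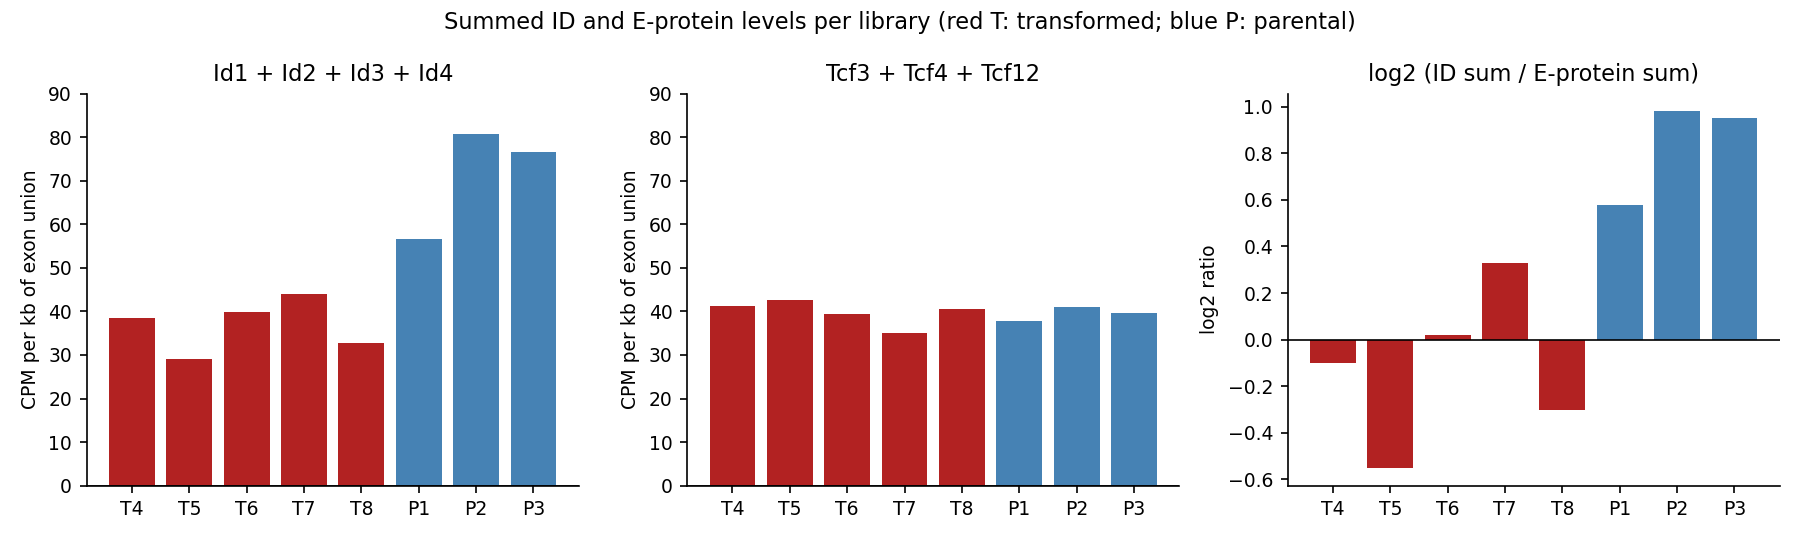
Summed CPM per kilobase of exon union for the 4 ID genes (left) and the 3 E-protein genes (middle), and the log2 ratio of the sums (right), by library. Red bars are transformed libraries (T4 to T8) and blue bars parental libraries (P1 to P3). The ID sum is 29.1 to 43.9 in transformed and 56.6 to 80.7 in parental libraries, while the E-protein sums overlap.

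The balance of ID to E-protein transcripts followed Id1. The summed ID level was 36.8 ± 5.87 CPM per kb in transformed cells (SD, n = 5) and 71.3 ± 12.9 in parental cells (SD, n = 3). The summed E-protein level was 39.8 ± 2.93 CPM per kb in transformed cells and 39.5 ± 1.51 in parental cells. The ID sum was 0.931, 0.681, 1.01, 1.26 and 0.811 times the E-protein sum in transformed 4, 5, 6, 7 and 8, against 1.49, 1.97 and 1.93 times in parental 1, 2 and 3. The groups did not overlap, with transformed 7 nearest to parental 1. These levels depend on the length used: with the longest transcript the ID sum was 0.38 to 0.64 times the E-protein sum in transformed libraries, against 0.825, 1.11 and 1.09 times in parental 1, 2 and 3. On the log2 scale the mean ratio was 0.96 lower in transformed cells (-0.96, transformed minus parental). It was -0.99 with the longest transcript as the length, -1.19 within lane 6 and -0.9 within lane 7, and it is given with no test because it is a score over the chosen members.

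Within the E proteins, transformed 7 differed from the other libraries in make-up. Tcf3 made 48.0% of the summed E-protein level per kilobase there, against 60.3% to 67.1% in the other 4 transformed libraries and 61.3% to 64.6% in parental libraries. Tcf12 made 45.2% in transformed 7, against 29.3% to 34.3% in the other 4 transformed libraries and 30.6% to 33.9% in parental libraries. Tcf4 made 3.56% to 6.75% in transformed and 4.45% to 4.83% in parental libraries, lowest in transformed 4. With the longest transcript as the length, Tcf3 made 33.1% in transformed 7, against 44.8% to 52.3% in the other 4 transformed libraries and 45.9% to 49.4% in parental libraries. On that scale Tcf12 led in transformed 7, with 56.1%, and Tcf4 made 6.47% to 10.8% in transformed and 7.92% to 8.44% in parental libraries. Transformed libraries varied more than parental ones in each E-protein gene, with coefficients of variation of 18%, 17.3% and 9.78% for Tcf3, Tcf4 and Tcf12 in transformed cells and 6.36%, 1.66% and 3.02% in parental cells. For Id1 and Id2 the coefficients were 15.7% and 26.1% in transformed cells and 17.6% and 30.7% in parental cells. No test was made of these differences in spread.

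**Figure D4:**
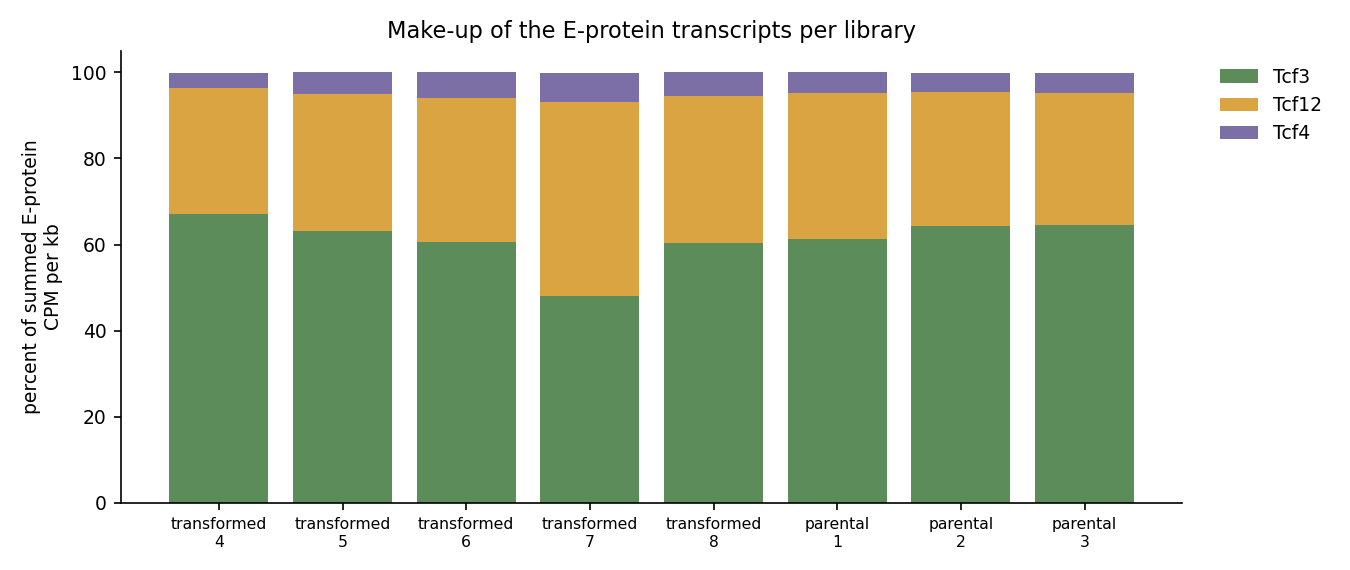
Share of Tcf3, Tcf12 and Tcf4 (stacked, percent) in the summed E-protein CPM per kilobase of exon union, for 5 transformed libraries (left) and 3 parental libraries (right). Transformed 7 has the smallest Tcf3 share (48.0%) and the largest Tcf12 share (45.2%).

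The genes around the ID and E proteins were taken as 8 lists of 135 symbols, of which 77 were tested, 1 was called higher and 2 lower over all genes, a share near the background of 3.01%. Without transformed 4 and transformed 7, 10 were called higher and 22 lower, where 28.9% of all genes passed. Over all tested genes, 22.2% had an unadjusted p under 0.05 and DESeq2 called 10.4%, and the counts of each list stand beside these shares. Tissue-restricted partners were led by Tal1 and Lyl1, blood-forming helix-loop-helix factors that dimerise with E proteins. Tal1 averaged 186 ± 25.1 CPM in transformed and 189 ± 7.14 CPM in parental cells, and Lyl1 145 ± 23.0 CPM in transformed and 154 ± 24.7 CPM in parental cells (SD, n = 5 and 3). Both missed the threshold (log2 fold changes -0.02 and -0.09, edgeR adjusted p = 0.944 and 0.781), also in DESeq2, and 0 of the 2 had an unadjusted p under 0.05. The other 19 of the 21 partner genes were too low to be tested, and 13 of them had 0 counts.

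Of 16 cofactors of E-protein complexes, 12 were tested and 0 passed in edgeR, with a median log2 fold change of -0.29, 3 at an unadjusted p under 0.05 (22.2% of all genes) and 2 called by DESeq2 (10.4% of all genes). Without transformed 4 and transformed 7, 10 of the 12 passed, where 28.9% of all genes did. Lmo2, the bridging protein that links TAL1 and E2A to GATA factors, had the smallest p. It had 3.66, 6.77, 8.32, 7.83 and 7.23 CPM in transformed 4, 5, 6, 7 and 8, against 12.6, 14.4 and 11.0 CPM in parental 1, 2 and 3 (log2 fold change -0.91, SE 0.237, edgeR adjusted p = 0.0709). The groups did not overlap, as in 9.69% of all tested genes in this direction, and the gene missed the threshold. Kat2b, an acetyltransferase, had a log2 fold change of -0.47 (SE 0.145, edgeR adjusted p = 0.103), and Cbfa2t3, a corepressor of the ETO family that binds E proteins, -0.54 (SE 0.213, edgeR adjusted p = 0.179). Gata2 spread widely among transformed libraries, with 1270 CPM in transformed 4 and 360 CPM in transformed 7, against 633 to 769 CPM in parental libraries; it was chosen for mention after its values were seen.

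Among 20 early B lineage genes that depend on E proteins, 4 were tested and edgeR called 0 of them. DESeq2 called 1, against 10.4% of all genes, and 1 had an unadjusted p under 0.05, against 22.2%. Pou2f2, an octamer-binding factor of B cells, had 163, 84.2, 95.1, 167 and 90.2 CPM in transformed 4 to 8, against 70.7, 61.3 and 66.1 CPM in parental 1, 2 and 3 (log2 fold change 0.86, SE 0.257, edgeR adjusted p = 0.101). Cd79a averaged 48.1 ± 4.7 CPM in transformed and 54.6 ± 4.42 CPM in parental cells (log2 fold change -0.18, edgeR adjusted p = 0.346), and Cd72, an inhibitory B cell receptor, 11.1 ± 5.52 CPM in transformed and 8.24 ± 0.477 CPM in parental cells (log2 fold change 0.43, edgeR adjusted p = 0.473). Abundant Tcf3 and Tcf12 RNA thus stood beside nearly absent Ebf1 and Pax5 RNA in both groups.

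Of 28 BMP and TGF-beta components, the signals that induce or restrain Id genes, 18 were tested, and 1 rose and 1 fell (3.01% of all genes were called). Of the 18, 7 had an unadjusted p under 0.05 (22.2% of all genes), DESeq2 called 3 (10.4%), and 8 passed without transformed 4 and transformed 7 (28.9%). Smad3, a transducer of TGF-beta, had 12.8, 12.4, 10.4, 11.7 and 11.7 CPM in transformed 4 to 8, against 5.51, 6.24 and 7.13 CPM in parental 1, 2 and 3. It rose 1.88-fold (log2 fold change 0.91, SE 0.129, edgeR adjusted p = 0.0134) and passed in 14 of 18 alternative settings. All 5 transformed libraries lay above each parental library, as in 8.07% of all tested genes. Tgfbr2, the TGF-beta type II receptor, averaged 31.9 ± 1.63 CPM in transformed and 44.1 ± 5.84 CPM in parental cells. It fell by 0.47 on the log2 scale (SE 0.105, edgeR adjusted p = 0.0495), and passed in 6 of 18 settings. The BMP receptors Bmpr1a and Bmpr1b and the related Acvr1 had 0 counts in all libraries. The BMP receptor Bmpr2 was present, at 34.4 ± 3.21 CPM in transformed and 32.3 ± 1.85 CPM in parental cells (log2 fold change 0.09, edgeR adjusted p = 0.645). Smad1, a transducer of BMP signals, averaged 0.294 ± 0.175 CPM in transformed and 0.0619 ± 0.06 CPM in parental cells (edgeR adjusted p = 0.153); it was chosen for mention after its values were seen. Tgfb1, the ligand, averaged 313 ± 52.2 CPM in transformed and 217 ± 21.6 CPM in parental cells (log2 fold change 0.53, edgeR adjusted p = 0.073).

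All 16 genes of the interleukin-3 receptor, JAK-STAT and early growth response list were tested, and 1 fell (3.01% of all genes were called). Of the 16, 5 had an unadjusted p under 0.05 (22.2% of all genes), DESeq2 called 3 (10.4%), and 4 passed without transformed 4 and transformed 7 (28.9%). Socs3, a feedback inhibitor of cytokine receptors, had 5.54, 6.61, 8.28, 6.63 and 8.69 CPM in transformed 4 to 8, against 8.62, 29.6 and 28.8 CPM in parental 1, 2 and 3 (log2 fold change -1.64, SE 0.35, edgeR adjusted p = 0.0451). Parental 1, the lowest parental library for Id1 and Id2, was at the transformed level for Socs3, and Socs3 passed in 6 of 18 settings. Egr2, an early growth response factor, had the same outlying library, with 3.37 to 7.91 CPM in transformed cells against 3.26, 19.2 and 26.7 CPM in parental 1, 2 and 3 (log2 fold change -1.6, SE 0.54, edgeR adjusted p = 0.136). Csf2rb2, a receptor chain with a close paralog that can share its reads, gave -1.05 (SE 0.382, edgeR adjusted p = 0.159). Of the 16 genes, 6 had positive and 10 negative log2 fold changes, with a median of -0.21. Among the positive ones, Cish gave 0.47 (SE 0.218, edgeR adjusted p = 0.245) and Pim1 0.36 (SE 0.206, edgeR adjusted p = 0.342). Stat5a and Stat5b, which encode STAT5, averaged 71.4 ± 15.3 and 114 ± 15.1 CPM in transformed cells and 84.4 ± 6.8 and 128 ± 11.0 CPM in parental cells, and both missed the threshold (edgeR adjusted p = 0.463 and 0.461).

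Genes of ID protein turnover and other ID partners had 16 of 17 members tested and 0 calls in edgeR (median log2 fold change -0.07), with 4 at an unadjusted p under 0.05 (22.2% of all genes) and 0 called by DESeq2 (10.4%). Without transformed 4 and transformed 7, 5 passed, where 28.9% of all genes did. Usp1, the deubiquitinase that stabilises ID proteins, averaged 187 ± 13.0 CPM in transformed and 176 ± 5.01 CPM in parental cells (log2 fold change 0.09, edgeR adjusted p = 0.557); it was named for this role after its values were seen. The 3 with the smallest p were Rbl2, a relative of the retinoblastoma protein (-0.62, edgeR adjusted p = 0.145), the ubiquitin ligase Huwe1 (0.29, edgeR adjusted p = 0.17) and the anaphase-promoting complex subunit Cdc27 (0.26, edgeR adjusted p = 0.191). Of 7 cyclin-dependent kinase inhibitors, which E proteins can induce and ID proteins oppose, 6 were tested and 0 passed in edgeR, with a median log2 fold change of -0.38, 3 at an unadjusted p under 0.05 (22.2% of all genes) and 1 called by DESeq2 (10.4%). Without transformed 4 and transformed 7, 4 of the 6 passed, where 28.9% of all genes did. Cdkn2c gave -0.55 (edgeR adjusted p = 0.0796), Cdkn1b -0.37 (edgeR adjusted p = 0.151) and Cdkn2d -0.38 (edgeR adjusted p = 0.191). Of 10 HES, HEY and other helix-loop-helix repressors 3 were tested, edgeR and DESeq2 called 0, and 0 had an unadjusted p under 0.05. Hes6, Bhlhe40 and Hes7 gave -0.29, -0.19 and 0.22 (edgeR adjusted p = 0.612, 0.705 and 0.844).

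**Figure D5:**
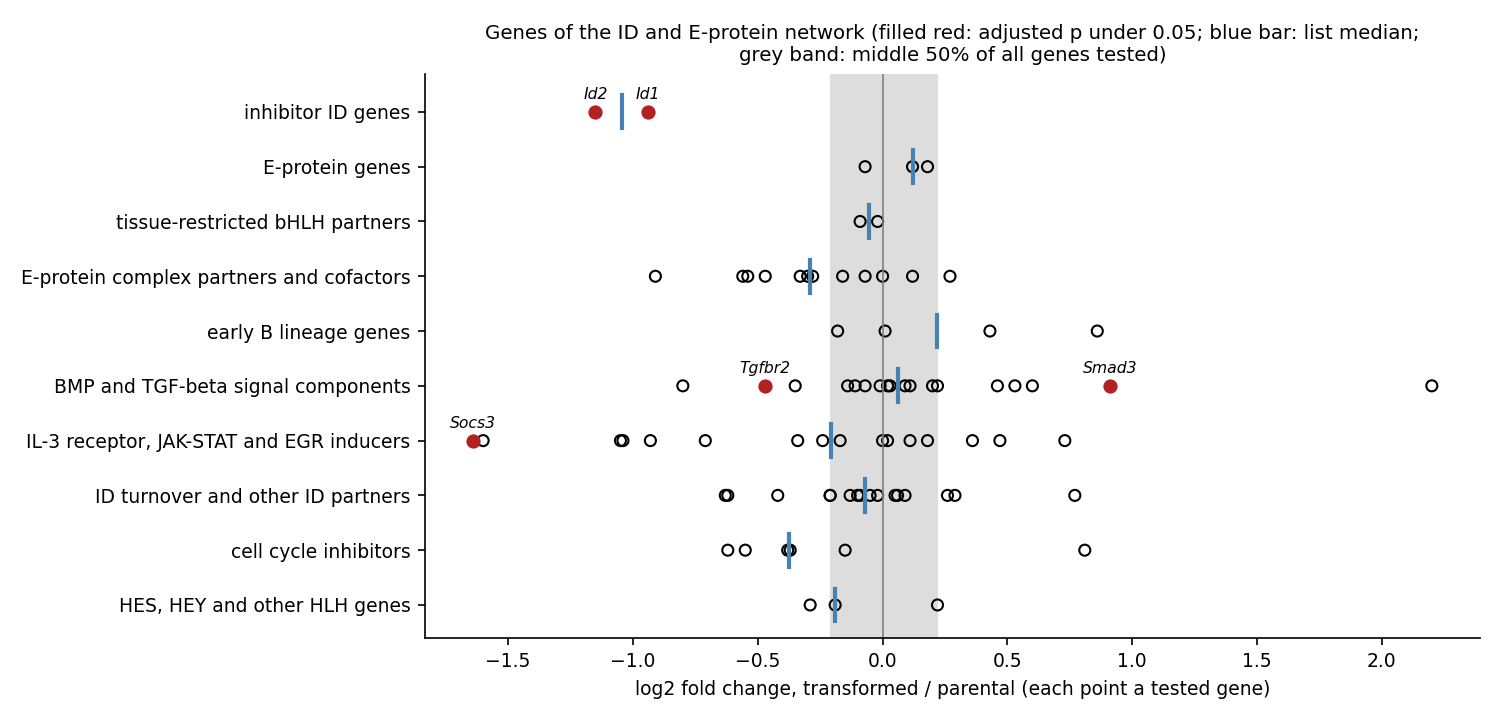
Log2 fold change (horizontal axis, transformed over parental) of each tested gene in the 2 member groups and 8 surrounding lists (vertical axis). Filled red points had adjusted p under 0.05, blue bars are list medians and the grey band holds the middle 50% of all tested genes (-0.208 to 0.219). Id1, Id2, Smad3, Tgfbr2 and Socs3 are the called genes.

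The genes whose log2 CPM followed each member most closely over the 8 libraries were sought among 9107 tested genes with an average log2 CPM of at least 3. For Id1 they were Leprot, Fam107b and Sun1 (Pearson r 0.974, 0.972 and 0.964), and for Id2 Acap2, Prdx5 and Tbc1d23 (0.964, 0.963 and 0.962). These values include the difference between groups, and with each group's mean removed they ran from 0.789 to 0.842 for Id1 and from 0.869 to 0.902 for Id2. Leprot averaged 26.2 ± 1.86 CPM in transformed and 35.6 ± 1.91 CPM in parental cells (SD, n = 5 and 3). Fam107b, which lies on chromosome 2 as Id1 does, averaged 498 ± 52.0 CPM in transformed and 729 ± 33.9 CPM in parental cells. For Tcf3 they were Polr2e, Adam15 and Pttg1 (0.99, 0.988 and 0.988), of which Polr2e lies on chromosome 10, as Tcf3 does. For Tcf12 they were Ralgapa2, Hspa9 and Mrps31 (0.996, 0.985 and 0.983), and for Tcf4 Gvin1, Bicd2 and Gnptab (0.994, 0.985 and 0.985). All such values share the same 8 libraries and their depth and are descriptions.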

How the data were processed

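PolyA RNA of Ba/F3 cells was sequenced in 5 transformed and 3 parental libraries, and the deposited table holds raw counts per Ensembl gene. Per the submitters' processing notes, the tools included STAR 2.5.3a and featureCounts 1.5.3, and builds mm10 and GRCm38.p5 are listed. The strand setting, multiple mapping rule and gene annotation were not stated, so overlapping genes on opposite strands cannot be separated. Of 53465 genes, 53360 were matched to GENCODE M21 symbols on GRCm38, and the other 105 held 0.0212% of counts. Promoters came from a RefSeq table on GRCm38.p6.

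The deposited counts were fitted with edgeR 4.0.16 (R 4.3.3; default low-count filter, TMM scaling, robust quasi-likelihood test), transformed against parental, with Benjamini-Hochberg adjustment over 17733 tested genes and a threshold of 0.05. The common biological coefficient of variation was 0.23. DESeq2 1.42.0 and limma-voom 3.58.1 were alternatives, beside other scalings, filters, sequencing lane and libraries left out. Each of the 5 tested members also had an exact permutation test over 56 splits. The fit was tested on simulated data. No 2 libraries agreed within sampling noise (lowest chi-square per degree of freedom 18.0 over 28 pairs). Total counts of 36122062 to 50305573 make 3 counts equal 0.0586 to 0.0857 CPM.

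The members and lists were chosen with earlier results of these data known. The genes named are all members, the called genes of each list or otherwise its 3 with the smallest p, the 3 genes most correlated with each member (average log2 CPM of at least 3, no predicted-gene names), and genes overlapping a member. Outside that rule, Egr2, Csf2rb2, Stat5a, Stat5b, Tgfb1, Smad1, Usp1, Gata2, Gata1, Lyz2, Cd14, the BMP receptors, U2af1 and the 2 called neighbours of Id1 were chosen after their values were seen. The same holds for Klf1, Prtn3, Mpo, Cish and Pim1.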

Additional observations from a re-analysis of the deposited data

Results flagged for a closer look

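Tcf4 in transformed 4, at 40.2 CPM, lay far below the other 4 transformed libraries, which had 58.8 to 64.6 CPM. Its gap to the nearest library was 0.76 of the range of the group, above Dixon's critical value of 0.71 for 5 samples. It was the only one of 8 measures tested to exceed that value, and chance alone flags about 1 in 20 for each measure, so 1 among 8 is not rare.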

How the results depend on the processing

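The number of genes called higher and lower depended on the method, the model and the libraries: 161 and 372 with all of them, 850 and 1001 with DESeq2, 15 and 79 with lane as a covariate, 1682 and 1883 in lane 6, 0 and 0 in lane 7, and 2238 and 2804 without transformed 4 and transformed 7. With 1 library left out at a time they ran from 3 to 1100 higher and from 21 to 1628 lower, and the cause was not tested.

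Id1 was lower in all 18 settings and passed in 12. It missed the threshold in lane 7 (-0.99) and without 1 of 5 libraries, and over the 8 fits without 1 library its log2 fold change ran from -1.07 to -0.83. Id2 was lower in all 18 and passed in 9. It missed with lane as a covariate (-1.23), in lane 6 (-1.33), in lane 7 (-1.09) and without 1 of 6 libraries, with a range of -1.36 to -0.93. DESeq2 gave an adjusted p of 1.24e-05 for Id1 and 0.00119 for Id2. Tcf3 changed sign in lane 6 (0.084) and without transformed 7 (0.038), and ran from -0.21 to 0.08 over the 18 settings and from -0.12 to 0.038 over the fits without 1 library. Tcf4 passed without transformed 4 (0.29, the top of a range from 0.14) and without transformed 4 and transformed 7 (0.27). Tcf12 passed in 0 of 18, and the ID to E-protein ratio kept its direction in 12 of 12 settings. Of the list genes with Id1, Id2 and the E-protein genes included, 11 were called higher and 24 lower without transformed 4 and transformed 7, where 28.9% of all genes passed, against 1 and 4 with all libraries. With group means removed, the number of the 3 most similar genes that recurred was 0 for Id1, 0 for Id2, 0 for Tcf3, 1 for Tcf4 and 1 for Tcf12.

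No paired analysis was possible because the groups share no replicate numbers. Depth limits Id3 and Id4, whose levels lay at or below 3 counts.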
